A study of Mus musculus with 12 samples.

Results

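Heterotrimeric G proteins and the regulators of G protein signalling (RGS) were taken as the genes whose symbols name a G alpha, beta or gamma subunit, an RGS protein or an RGS binding protein. The deposited table held 53 such genes among 20540. They were 15 alpha, 5 beta and 11 gamma subunits, 20 RGS proteins and 2 RGS binding proteins. RNA came from oligodendrocyte progenitor cells (OPCs), the glial precursors that divide and then form myelinating oligodendrocytes, which were taken from postnatal brain (day 6 to 7, strain C57BL/6) and held in proliferation medium with SATO and PDGFRA, as the label spells it. The cells received a control microRNA mimic or a mimic of miR-27a, each carrying a biotin tag, and RNA was sequenced either from whole cells or from a pulldown through that tag. Each of the 4 groups (whole-cell control, whole-cell miR-27a, pulldown control and pulldown miR-27a) had 3 libraries. All groups carried a synthetic, transfected RNA, so no group shows untransfected cells. The control mimic's sequence is not known from the labels. Whether the replicates were separate cultures is not stated, and each p-value therefore reflects only how far these libraries scatter, which may be technical.

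A G protein-coupled receptor that has bound its ligand makes the alpha subunit exchange GDP for GTP, after which alpha and the beta-gamma pair part and act on separate effectors. Gs subunits stimulate adenylyl cyclase, Gi/o subunits inhibit it, Gq subunits activate phospholipase C beta, and G12 and G13 act on exchange factors of the GTPase RhoA. RGS proteins end the signal by speeding GTP hydrolysis on the alpha subunit, and RGS binding proteins anchor the R7 family of RGS proteins at membranes. In the oligodendrocyte lineage such receptors take part in the control of division, migration and differentiation.

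MicroRNAs pair with messenger RNAs mainly through the seed, bases 2 to 8. The mature miR-27a-3p of the mouse is given first, from RefSeq (GRCm38.p6, chromosome 8, 84208727 to 84208747, + strand), with its seed in capitals. Matches in the annotated 3′ UTRs of some of the members follow (GENCODE M21, GRCm38), with the match in capitals.
mmu-miR-27a-3p: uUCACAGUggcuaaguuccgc
Gnb4 8mer, chromosome 3, 32583495 to 32583502, - strand: tttcatccttgtACTGTGAAtgtg
Gnb4 7mer, chromosome 3, 32584629 to 32584635, - strand: aggtccccttggACTGTGAcatt
Rgs7bp 8mer, chromosome 13, 104948013 to 104948020, - strand: gacgacttccagACTGTGAAagtc
Rgs6 8mer, chromosome 12, 83158070 to 83158077, + strand: ggagatttggtcACTGTGAAggag
Gna12 7mer, chromosome 5, 140760332 to 140760338, - strand: actgaatcggggACTGTGAgact
Gna12 7mer, chromosome 5, 140758861 to 140758867, - strand: ctgctgggggccACTGTGAccaa
Gng12 7mer, chromosome 6, 67021182 to 67021188, + strand: aatcactttaaaACTGTGAttgt
Gnaz 7mer, chromosome 10, 75016577 to 75016583, + strand: ctgctcagactcCTGTGAAggca

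Matches were sought on the sense strand as the 8mer ACTGTGAA and as 7mers, ACTGTGA or CTGTGAA, not counting a 7mer inside an 8mer. All 53 members had an annotated 3′ UTR. An 8mer or 7mer lay in 14 of them (26.4%), against 4337 of the 15561 genes of the table with an annotated 3′ UTR (27.9%), and an 8mer in 5 members (9.43%) against 957 genes (6.15%). The median 3′ UTR was 1695 bases in members and 1082 bases in all these genes. The 8mers were in Gnb4, Rgs7bp, Rgs6, Rgs8 and Rgs1. The 3′ UTRs of Gna12 and Rgs6 each held a further 7mer, not printed. Those of Gna13, Gnb1 and Rgs2 each held a 7mer, not printed either. No match was found in the 3′ UTR of Rgs4, Rgs16, Rgs20, Gna14 or Gng4, whose values are given below.

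Assigned reads ranged from 15548418 to 24972188 per library. The first principal component of log2(CPM + 1), where CPM is reads scaled to the size of the library as normalised by the authors, took up 65.3% of the variance. Along the third, with 5.4%, pulldown miR-27a replicate 2 lay farthest from 0, and member calls that changed without it are given with the results. All 10 OPC markers were present at 1 CPM or more in every group, and their summed level was 2090 to 2160 CPM in whole-cell libraries, 3480 to 3540 CPM in pulldown control and 3960 to 4060 CPM in pulldown miR-27a libraries. Markers of other cells were present too. In whole-cell libraries, 9 oligodendrocyte markers summed to 11500 to 12600 CPM, 10 astrocyte markers to 7520 to 8960 CPM and 10 microglial markers to 18.8 to 26.0 CPM.

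Of the 53 members, 40 reached a mean of 1 CPM in at least 1 group and are called measured. They were 12 alpha, 4 beta and 8 gamma subunits, 15 RGS proteins and 1 RGS binding protein. The 13 not measured were the rod and cone transducins Gnat1 and Gnat2, the cone beta and gamma subunits Gnb3 and Gngt2, Gna15, Gng8, Gng13, Rgs1, Rgs11, Rgs13, Rgs14, Rgs18 and Rgs9bp. Their reads over all 12 libraries ranged from 1 for Rgs18 to 161 for Rgs9bp, and their highest group means from 0.0180 to 0.979 CPM. Next to the limit stood Rgs8, with a highest group mean of 1.07 CPM, and Rgs9bp, at 0.979 CPM.

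Levels were compared between genes as CPM per kilobase of annotated exons, as mean ± SD of 3 libraries. The length joins all annotated exons of a gene, 11186 bases for Gnas and 3262 for Gnai3, and the ranks and shares depend on it. In CPM alone, Gnas stood above Gnai3 in whole-cell control RNA (means of 627 and 376 CPM). Among alpha subunits in whole-cell control RNA, Gnai3, an inhibitory subunit, was highest at 115 ± 2.99. Gnai1 (59.5 ± 3.77), the stimulatory Gnas (56.04 ± 1.11) and Gna13 (52.9 ± 2.10) followed, each with libraries that overlapped those of its neighbour. Gna12 stood at 39.7 ± 1.81, Gnai2 at 36.7 ± 0.487, Gna11 at 34.8 ± 1.36 and Gnaq at 18.1 ± 1.51 CPM per kb. Gnai2 and Gna11 did not differ beyond their spread. Lower still were Gnaz (4.67 ± 0.615), Gnao1 (3.27 ± 0.357), Gna14 (2.26 ± 0.0640) and Gnal (0.793 ± 0.0326), the Gs-type subunit of olfactory and striatal neurons. By coupling class, Gi/o subunits made up 51.7% ± 0.75 of the summed alpha level in this group, G12 subunits 21.8% ± 0.29, Gs subunits 13.4% ± 0.43 and Gq subunits the rest (SD, n = 3).

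Among beta subunits, Gnb2 was highest at 59.5 ± 5.33 CPM per kb, followed by Gnb1 at 32.4 ± 1.54, Gnb5, the partner of R7 family RGS proteins, at 14.2 ± 1.01, and Gnb4 at 6.20 ± 0.128. These 4 differed by more than their spread. Among gamma subunits, Gng12 (117 ± 2.15) and Gng10 (86.7 ± 4.51) stood above Gng5 (26.1 ± 1.37), Gng2 (24.2 ± 0.402), Gng3 (14.6 ± 1.16), Gng4 (8.73 ± 0.782), Gng11 (4.24 ± 1.25) and Gng7 (1.92 ± 0.108). In the annotation, 72.0% of the exon bases of Gng10 are shared with the same-strand gene Gm20503, so how its reads were assigned is uncertain. RGS genes reached lower levels than the leading subunits. Rgs4 (11.2 ± 0.738), Rgs12 (11.1 ± 0.615) and Rgs2 (9.55 ± 0.440) led, with Rgs4 and Rgs12 within their spread, and Rgs16 (6.98 ± 0.336), Rgs19 (6.32 ± 0.541), Rgs20 (5.05 ± 0.380), Rgs7 (4.62 ± 0.0228) and Rgs9 (4.09 ± 0.356) came next. The other measured RGS genes ranged from 3.78 (Rgs10) to 0.0753 (Rgs8) CPM per kb.

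**Figure D1:**
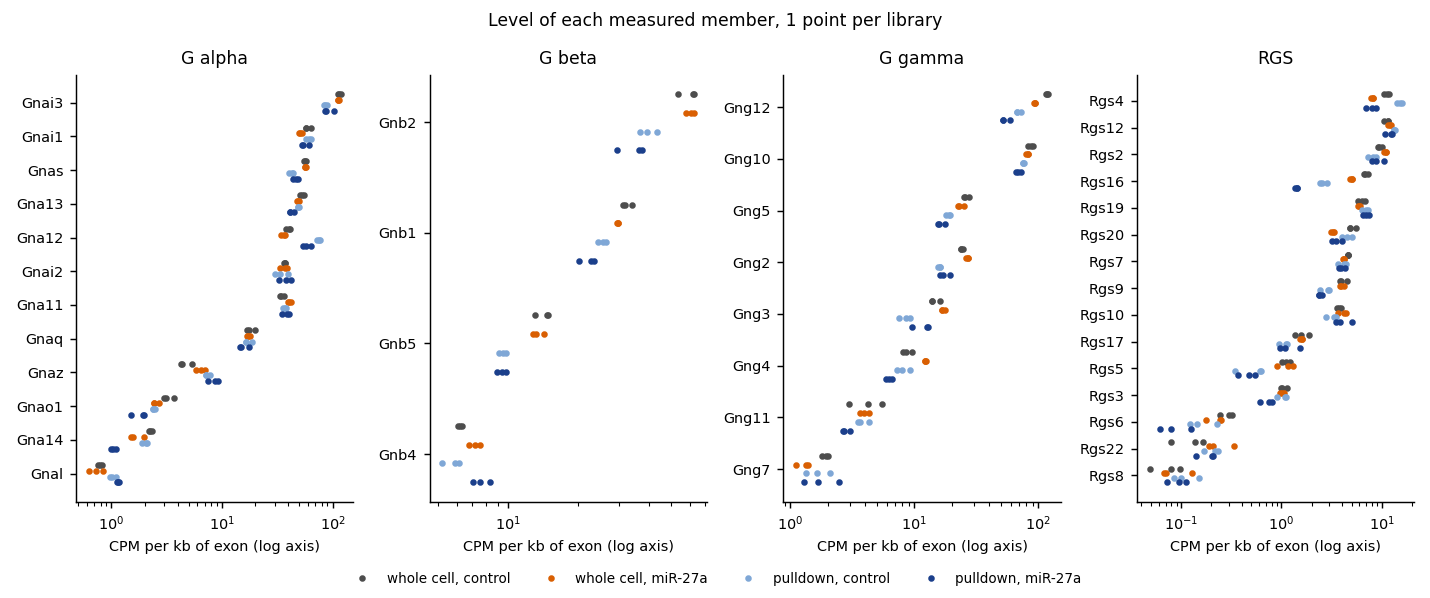
Level of each measured alpha, beta and gamma subunit and RGS gene, in CPM per kb of exon on a log axis, with 1 point per library and 1 colour per group. Gnai3, Gnb2 and Gng12 lead their classes in whole-cell control RNA, and the highest RGS genes, Rgs4 and Rgs12, lie near 11.2 and 11.1.

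In whole-cell RNA, libraries under the miR-27a mimic were set against those under the control mimic. Of 39 members tested, 9 rose and 12 fell, which is 53.8%, where 24.9% of the 13393 genes tested passed the same threshold, 13.0% upward and 11.9% downward. Without Rgs22, which entered the test only through its miR-27a libraries, 8 of 38 rose and 12 fell (52.6%). The threshold was a Benjamini-Hochberg adjusted p of 0.05 over all genes tested with limma, and changes are on the log2(CPM + 1) scale, which understates those of low genes.  The median log2 change of the 39 was -0.06, against 0.01 for all genes, and calls ran from -0.60 for Rgs20 to 0.48 for Gng4. Without regard to sign, the median change was 0.145 in members and 0.109 in all genes, which lay closer together than the shares called. In 20 of the 21, the libraries of the groups did not overlap, and 23.9% of all genes were called without overlap. In bulk RNA, fewer cells of a type and less RNA per cell cannot be told apart. The count of members was 12 without whole-cell miR-27a replicate 1 and 10 when all 12 libraries were fitted together, where Gna12, Gna13, Gnb1, Gnb4, Gng2, Gng3, Gng5, Gng7, Rgs2, Rgs22 and Rgs7bp lost their calls. Without the filter on low values it was 15, and Gna13, Gna14, Gng3, Gng5, Rgs22 and Rgs7bp lost theirs. In these fits, in the same order, 2379, 1415 and 2657 of all genes passed, against 3335 otherwise. The calls of 9 members held in each of the 15 alternatives run: Rgs4, Rgs16, Rgs20, Gna11, Gnai1, Gnao1, Gnaz, Gng4 and Gng12.

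Among alpha subunits, 2 of 12 rose and 5 fell. Gnaz encodes Gz, a member of the inhibitory class that pertussis toxin does not block. It had 15.8, 19.4 and 15.3 CPM under control mimic and 20.96, 25.3 and 23.2 CPM under miR-27a, a log2 change of 0.44 ± 0.09 (SE, adjusted p = 0.000714). Gna11, which activates phospholipase C beta, rose from 138, 149 and 141 to 164, 162 and 172 CPM, at 0.22 ± 0.04 (SE, adjusted p = 0.000252). Both genes were higher in every miR-27a library than in any control library. The other Gi/o subunits that changed fell. Gnao1, the Go subunit abundant in brain, stood at 33.3, 40.6 and 34.5 CPM in control and 29.8, 26.9 and 27.1 CPM in miR-27a libraries (-0.36 ± 0.07 SE, adjusted p = 0.000685). Gnai1 had 200.0, 179.9 and 179 against 157, 165 and 159.7 CPM, a change of -0.21 ± 0.04 (SE, adjusted p = 0.000646). Gnai2 and Gnai3, at -0.01 ± 0.05 and -0.03 ± 0.03, did not pass, and the sign of Gnai2 turned with library totals as the scaling.

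Both G12 class subunits fell in whole-cell RNA, by small amounts, and lost the call with all 12 libraries fitted together (0.186 for Gna12 and 0.266 for Gna13). Gna12 had 129, 141 and 137 CPM in control and 123, 118 and 127 CPM in miR-27a libraries, a log2 change of -0.15 ± 0.04 (SE, adjusted p = 0.0162), with no overlap. Its adjusted p was 0.0687 and 0.0669 with whole-cell control libraries 2 and 3 left out in turn and 0.0511 and 0.0904 with whole-cell miR-27a libraries 1 and 2 left out in turn. Gna13 went from 354, 327 and 339 to 316, 322 and 309 CPM, -0.11 ± 0.04 (SE, adjusted p = 0.0319). For Gna13, whose groups did not overlap either, it was 0.0897 and 0.0856 with whole-cell control libraries 1 and 3 left out in turn and 0.0971 and 0.152 with whole-cell miR-27a libraries 1 and 3 left out in turn. It was 0.0539 with library totals as the scaling, 0.0765 with no filter and 0.0522 with the replicate block, so that 8 of 15 alternatives ended the call of Gna13. Gna14, a Gq class subunit of narrow expression, had 7.59, 7.69 and 8.01 CPM under control mimic and 6.79, 5.21 and 5.40 CPM under miR-27a, -0.37 ± 0.11 (SE, adjusted p = 0.0168), with adjusted p of 0.0594 with whole-cell control library 3 left out and 0.0794 and 0.0761 with whole-cell miR-27a libraries 2 and 3 left out in turn. The Gs subunits did not pass. Gnas read 616, 625 and 640.2 CPM in control and 637, 635 and 638 CPM in miR-27a libraries, which overlapped (0.02 ± 0.03 SE, adjusted p = 0.642), and Gnal and Gnaq had log2 changes of -0.12 ± 0.11 and -0.06 ± 0.05.

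Among beta subunits, Gnb4 rose and Gnb1 fell. Gnb4, which carries the 8mer and a 7mer printed above, had 78.8, 76.98 and 80.2 CPM in control and 91.8, 96.5 and 86.4 CPM in miR-27a libraries, a log2 change of 0.22 ± 0.05 (SE, adjusted p = 0.00136). Its lowest miR-27a library lay above its highest control library, and it passed with each library left out but not with all 12 in the fit (0.0717). Gnb1 stood at 146, 133 and 136 against 127, 126 and 125 CPM, -0.13 ± 0.04 (SE, adjusted p = 0.0216), and its adjusted p was 0.0821 with whole-cell control library 1 left out and 0.061 and 0.0848 with whole-cell miR-27a libraries 1 and 3 left out in turn. Gnb2, the beta subunit with the highest level per kb, had 181, 212 and 214 CPM in control and 214, 197 and 208 CPM in miR-27a libraries (0.03 ± 0.05), and Gnb5 was at -0.08 ± 0.06. Neither passed. The share of Gnb4 in the summed beta level was 5.53% ± 0.27 in control and 6.52% ± 0.40 in miR-27a libraries (SD, n = 3).

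Gamma subunits moved in both directions, with 3 of 8 higher, 3 lower and 2 that did not pass. Gng4 (chromosome 13, 13784059 to 13827896, GRCm38), a gamma subunit found mainly in neural tissue, had 28.4, 32.1 and 27.03 CPM under control mimic and 41.0, 41.6 and 40.5 CPM under miR-27a. Every miR-27a library was higher than every control library, with a log2 change of 0.48 ± 0.06 (SE, adjusted p = 5.23e-06). Gng12 (chromosome 6, 66896397 to 67021350), a widely expressed gamma subunit, fell from 566, 547 and 551 to 439, 441 and 440.3 CPM, -0.33 ± 0.03 (SE, adjusted p = 3.09e-08), with the smallest adjusted p of all members. Its share of the summed gamma level was 41.3% ± 0.52 in control and 35.8% ± 0.42 in miR-27a libraries, while that of Gng4 was 3.07% ± 0.29 and 4.72% ± 0.0090.

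The calls of the other gamma subunits depended more on which libraries were fitted. Gng7, known from striatal neurons, had 6.82, 7.40 and 7.61 CPM in control and 4.20, 5.09 and 5.23 CPM in miR-27a libraries, -0.51 ± 0.11 (SE, adjusted p = 0.00186), and passed with each library left out but not with all 12 libraries in the fit (0.0662). Gng2, at 108, 105 and 105 against 119.9, 115 and 118 CPM, rose by 0.15 ± 0.04 (SE, adjusted p = 0.00822), with adjusted p of 0.0545 with whole-cell miR-27a library 1 left out. Neither gene's groups overlapped. Gng3, a neuronal gamma subunit, had 26.2, 22.8 and 22.96 CPM and 27.5, 29.2 and 27.5 CPM in the same order, 0.22 ± 0.07 (SE, adjusted p = 0.024). Its adjusted p was 0.074 and 0.0998 with whole-cell control libraries 2 and 3 left out in turn and 0.0539, 0.0955 and 0.052 with whole-cell miR-27a libraries 1, 2 and 3 left out in turn. Gng5 fell by 0.15 ± 0.05 (SE, adjusted p = 0.0347) from 76.4, 69.3 and 70.6 to 62.8, 69.5 and 61.95 CPM, and was the only called member in this comparison whose groups overlapped. Here the adjusted p was 0.123 and 0.0611 with whole-cell control libraries 1 and 3 left out in turn and 0.146 and 0.173 with whole-cell miR-27a libraries 1 and 3 left out in turn. Gng10 (-0.08 ± 0.04) and Gng11 (-0.05 ± 0.15) did not pass, although Gng10 did so without whole-cell control replicate 1 (0.0295).

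Of 14 RGS genes tested in whole-cell RNA, 2 rose, 3 fell and 9 did not pass, and 1 of the 2 was Rgs22. Rgs20 (chromosome 1, 4909576 to 5070285), an RZ family protein that acts on Gz, had 20.3, 23.2 and 20.6 CPM in control and 13.9, 14.2 and 13.3 CPM in miR-27a libraries, -0.60 ± 0.08 (SE, adjusted p = 5.35e-06). Rgs4 (chromosome 1, 169741477 to 169747642), an R4 family protein that acts on Gi/o and Gq subunits, read 36.8, 35.3 and 32.3 against 25.3, 25.2 and 24.4 CPM, -0.46 ± 0.07 (SE, adjusted p = 1.07e-05). Rgs16 (chromosome 1, 153740349 to 153745468), of the same family, read 16.0, 17.2 and 15.8 against 11.7, 11.8 and 11.4 CPM, -0.46 ± 0.08 (SE, adjusted p = 0.000242). In all 3 genes every miR-27a library was below every control library. Rgs2, an R4 protein with a preference for Gq, had 34.04, 36.5 and 33.4 CPM in control and 39.8, 40.4 and 38.3 CPM in miR-27a libraries, which did not overlap, and rose by 0.18 ± 0.06 (SE, adjusted p = 0.0227). Its adjusted p was 0.0989 with whole-cell control library 3 left out and 0.0805 and 0.0776 with whole-cell miR-27a libraries 1 and 2 left out in turn.

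Rgs22 reached the filter of 1 CPM in 3 libraries only through its miR-27a libraries, with 0.446, 0.769 and 0.934 CPM in control and 1.08, 1.89 and 1.18 CPM in miR-27a libraries. Its adjusted p was 0.0494. Of 11 alternatives 6 ended the call, at 0.174 and 0.0596 with whole-cell control libraries 1 and 2 left out in turn, 0.0653 with no filter, 0.0669 with a pseudocount of 4, 0.0521 with median-of-ratios scaling and 0.0958 with all 12 libraries, and a filter of 5 CPM left it untested. The 3 tested R7 genes did not pass: Rgs7, whose groups did not overlap at 27.8, 27.7 and 27.96 against 25.3, 24.9 and 25.3 CPM, was at -0.14 ± 0.06, Rgs9 at -0.03 ± 0.07 and Rgs6 at -0.27 ± 0.14. Their anchor Rgs7bp, which has an 8mer match, had 4.46, 4.20 and 2.40 CPM in control and 5.07, 5.21 and 5.18 CPM in miR-27a libraries, 0.42 ± 0.15 (SE, adjusted p = 0.0389). Control replicate 3 was the low one of its group, and the adjusted p was 0.289 with whole-cell control library 3 left out and 0.0891, 0.099 and 0.102 with whole-cell miR-27a libraries 1, 2 and 3 left out in turn. The remaining RGS genes, Rgs3, Rgs5, Rgs10, Rgs12, Rgs17 and Rgs19, had log2 changes from -0.07 for Rgs19 to 0.10 for Rgs12.

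**Figure D2:**
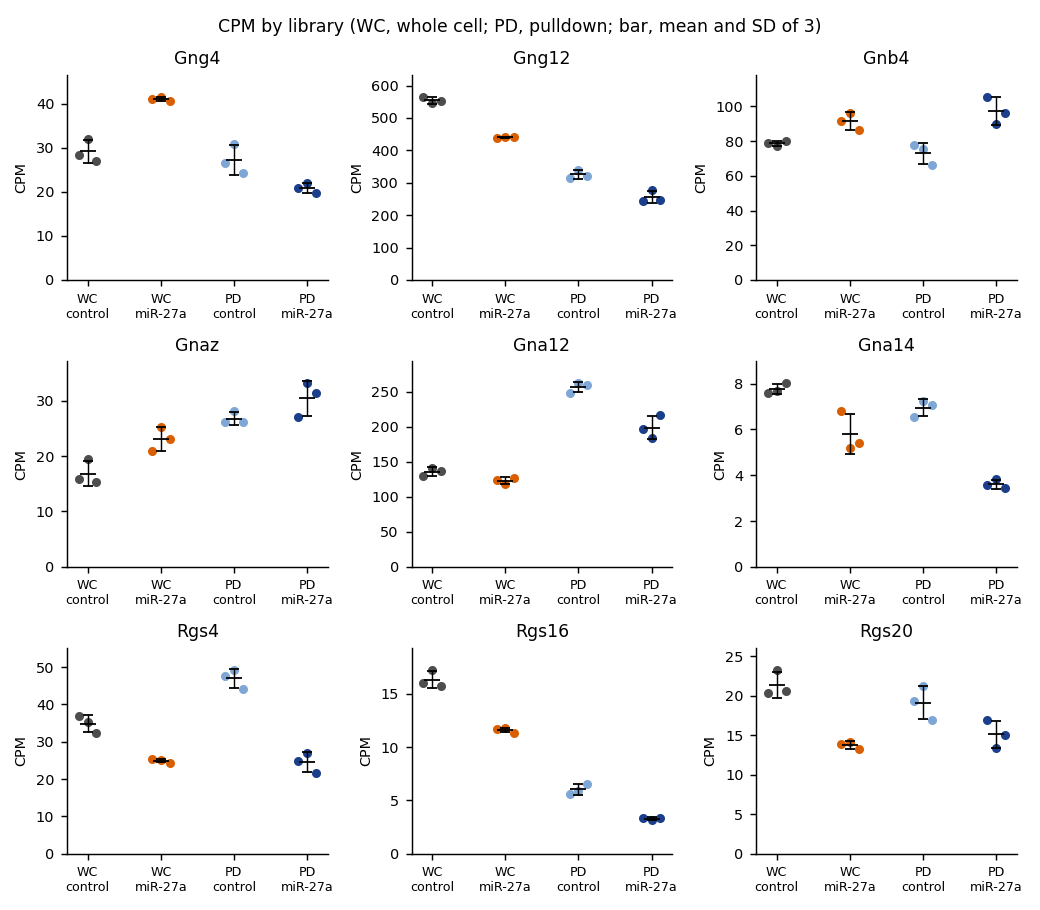
CPM of 9 members in every library (WC, whole cell, and PD, pulldown), with the mean and SD of 3 libraries as a bar and each axis starting at 0. Gng4 is higher under miR-27a in whole-cell RNA and lower in pulldown RNA, while Rgs4, Rgs16 and Gng12 are lower under miR-27a in both.

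Members were also split by the seed match. Of 11 with a match that were tested in whole-cell RNA, 4 rose (Gnaz, Gnb4, Rgs2 and Rgs7bp), 4 fell (Gna12, Gna13, Gnb1 and Gng12) and 3 did not pass, with a median log2 change of -0.01. Among the 3472 genes with a match that were tested, 383 rose and 690 fell, and 30.9% were called. Of 28 without one, 5 rose, 8 fell and 15 did not pass, with a median of -0.06, where 1164 of the 7926 genes without a match rose and 731 fell (23.9% called). Of the 3 with an 8mer, 2 rose and none fell in whole-cell RNA, and 1 rose and none fell in pulldown RNA. Of all tested genes with an 8mer, 7.9% rose and 32.4% fell in whole-cell RNA, and 3.93% and 17.5% in pulldown RNA. The 8 members that fell in whole-cell RNA with no match in the annotated 3′ UTR were Rgs4, Rgs16, Rgs20, Gna14, Gnai1, Gnao1, Gng5 and Gng7.

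Cell type markers differed between the mimics too. Of 10 OPC markers, 5 were higher and 1 lower under miR-27a in whole-cell RNA, and 3 were higher in pulldown RNA. The summed level of 9 oligodendrocyte markers was 12000 to 12600 CPM in control and 11500 to 11900 CPM in miR-27a whole-cell libraries, with 3 lower and 1 higher of 9, and 5900 to 6620 CPM and 4530 to 5550 CPM in pulldown libraries, with 5 lower of 8. In the pulldown, the myelin genes Mbp and Mag went from means of 796 and 414 CPM to 440.0 and 221 CPM. The summed level of 10 astrocyte markers was 8910 to 8960 CPM in control and 7520 to 7550 CPM in miR-27a whole-cell libraries, with 7 lower and 1 higher of 10. In pulldown libraries it was 5890 to 6060 CPM and 4190 to 4730 CPM, with 7 of 10 lower. The summed level of 10 mural cell markers was 107 to 118 CPM and 49.3 to 53.9 CPM in whole-cell libraries, where Acta2 and Tagln made up 46.0 and 47.1 CPM under control mimic and 15.5 and 18.2 CPM under miR-27a and Higd1b was at 0 in both groups. Of 5 mural markers tested, 3 fell and none rose. In pulldown libraries the mural sum was 90.4 to 102 CPM and 45.1 to 64.7 CPM, with 3 lower of 6. Rgs5, which pericytes express at high level, had 4.59, 5.03 and 5.47 CPM in control and 5.23, 4.08 and 5.96 CPM in miR-27a whole-cell libraries, which overlapped. Neuronal markers summed to 167 to 188 CPM and 212 to 238 CPM over 9 genes, of which Tubb3 made up 104 and 159 CPM. The other 8 summed to 74.2 and 66.8 CPM, with Snap25 at 28.1 and 21.1 CPM and Rbfox3 at 0.252 and 0.324 CPM. In the pulldown these 8 summed to 48.2 and 35.0 CPM, and Tubb3 stood at 91.2 and 127 CPM. Of 10 microglial markers, summing to 22.3 to 26.0 CPM and 18.8 to 20.3 CPM in whole-cell libraries, 7 were tested and 1 was lower. The part of these cells in the changes of the members was not tested.

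In pulldown RNA, the mimic comparison gave 2 rises and 8 falls among 40 members tested, 25.0%, where 13.1% of 13586 genes passed (6.05% higher and 7.06% lower). The libraries of the groups did not overlap in any of the 10, and 13.0% of all genes were called without overlap. The median log2 change of the 40 was -0.12, against -0.001 for all genes, and without regard to sign 0.182 against 0.146. These 40 are not the measured members, because the test filter went by single libraries. They included Rgs9bp, counted above as not measured, and left out Rgs8. The 41 members tested with all 12 libraries held both. The largest falls were those of Rgs4, Gna14 and Rgs16, which were the 3 members that passed in all 15 alternatives. The count was 6 without pulldown control replicate 1, control replicate 2 or miR-27a replicate 3, 4 without control replicate 3, and 12 without miR-27a replicate 2. In the same order, 1002, 1180, 1029, 969 and 2691 of all genes passed, against 1781 with every library. With the replicate number as a block, 13 members and 2743 of all genes passed, against 10 and 1781 without it, the 3 more being Gna13 at -0.21 ± 0.06 (SE, adjusted p = 0.0207), Gnb1 at -0.20 ± 0.07 (0.0433) and Gnb2 at -0.22 ± 0.07 (0.0313). Without the block their adjusted p was 0.0869, 0.149 and 0.183.

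RGS genes gave 3 falls among 14 tested and no rise, all in the R4 family. Rgs4 had 47.6, 49.1 and 44.03 CPM in pulldown control and 24.8, 27.1 and 21.7 CPM in pulldown miR-27a libraries, a log2 change of -0.91 ± 0.10 (SE, adjusted p = 3.41e-05). Its miR-27a mean was 0.523 times the control mean. Rgs16 was lower in the pulldown than in whole cells and fell from 5.63, 5.91 and 6.59 to 3.37, 3.17 and 3.35 CPM, -0.71 ± 0.14 (SE, adjusted p = 0.00337). Rgs3, which was at -0.06 ± 0.09 in whole-cell RNA and did not pass, stood at 11.8, 9.65 and 11.9 against 8.71, 6.64 and 8.05 CPM and fell by 0.46 ± 0.14 (SE, adjusted p = 0.0356). It was the only member called in pulldown and not in whole-cell RNA, and its adjusted p was 0.137 and 0.141 with pulldown control libraries 1 and 3 left out in turn and 0.0681 and 0.0886 with pulldown miR-27a libraries 2 and 3 left out in turn. Rgs20 had 19.3, 21.2 and 16.96 against 16.9, 13.4 and 14.99 CPM, -0.32 ± 0.12 (SE, adjusted p = 0.0976). It passed without pulldown miR-27a replicate 1 (0.0373) and with all 12 libraries (0.0281).

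Among alpha subunits, 3 of 12 fell and none rose. Gna14 had 6.53, 7.26 and 7.06 CPM in control and 3.56, 3.82 and 3.44 CPM in miR-27a libraries, -0.79 ± 0.14 (SE, adjusted p = 0.00134). Gna12, with 7mers in its 3′ UTR, had 248, 262 and 259 CPM and 196, 183 and 216 CPM, -0.37 ± 0.08 (SE, adjusted p = 0.00769). Its call was lost without pulldown control replicate 3 (0.0584). In both genes all miR-27a libraries were below all control libraries. Gnao1 read 26.2, 26.5 and 27.4 against 21.5, 16.7 and 21.8 CPM, -0.41 ± 0.12 (SE, adjusted p = 0.0262), with adjusted p of 0.0826, 0.075 and 0.106 with pulldown control libraries 1, 2 and 3 left out in turn. Gnaz, which had risen in whole-cell RNA, had 26.1, 28.1 and 26.1 against 26.98, 33.1 and 31.3 CPM in the pulldown, with overlap, and a log2 change of 0.18 ± 0.10 (SE, adjusted p = 0.305). Gna11 and Gnai1 were at 0.04 ± 0.08 and -0.12 ± 0.08 and did not pass. Without pulldown miR-27a replicate 2, the library apart from the others, Gna13, Gnai2 and Gnaq passed at 0.00814, 0.0435 and 0.0327.

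Gnb4 was the beta subunit that rose in the pulldown, from 77.7, 75.2 and 66.2 to 106, 89.9 and 96.3 CPM, 0.41 ± 0.09 (SE, adjusted p = 0.00765). It was lost without pulldown control replicate 3 (0.0738). Its share of the summed beta level was 7.15% ± 0.56 in control and 10.4% ± 0.38 in miR-27a libraries. Of 8 gamma subunits, Gng3 rose and Gng12 and Gng4 fell. Gng12 had 316, 341 and 320.1 CPM and 243, 277 and 247 CPM, -0.35 ± 0.08 (SE, adjusted p = 0.01), close to its change in whole-cell RNA, and its adjusted p was 0.0613 and 0.0578 with pulldown control libraries 2 and 3 left out in turn and 0.0695 with pulldown miR-27a library 3 left out. Gng3 stood at 15.2, 12.4 and 13.9 against 20.97, 15.8 and 20.9 CPM and rose by 0.44 ± 0.13 (SE, adjusted p = 0.0347). For it the adjusted p was 0.0557, 0.144 and 0.0978 with pulldown control libraries 1, 2 and 3 left out in turn and 0.0728 and 0.166 with pulldown miR-27a libraries 1 and 3 left out in turn. Gng7, lower under miR-27a in whole cells, had 5.09, 6.25 and 7.91 against 9.28, 4.92 and 6.38 CPM in the pulldown, which overlapped (0.06 ± 0.19).

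Of the 39 members tested in both kinds of RNA, 28 had log2 changes of one sign (71.8%), against 67.5% of 13203 genes. Members that passed in both were 9 (23.1%), against 8.8% of genes. Rgs4, Rgs16, Gna12, Gna14, Gnao1 and Gng12 were lower in both, Gnb4 and Gng3 were higher in both, and Gng4 went opposite ways, as did 18 of the 1162 genes that passed in both. Of the 21 members called in whole-cell RNA, 18 kept their sign in the pulldown (85.7%), against 86.7% of all genes so called.

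Whether the change between mimics itself differed between pulldown and whole-cell RNA was tested as the pulldown change minus the whole-cell change, from all 12 libraries. Of 41 members, only Gng4 passed (2.44%), where 1.07% of 13875 genes did, 0.339% upward and 0.735% downward. At an unadjusted p of 0.05, 8 of the 41 members passed, as did 1804 of the 13875 genes. Gng4 had 26.5, 30.9 and 24.3 CPM in pulldown control and 20.8, 21.98 and 19.7 CPM in pulldown miR-27a libraries, which did not overlap, a log2 change of -0.37 ± 0.11 (SE, adjusted p = 0.0392). The pulldown change alone was lost in 5 of 15 alternatives, with adjusted p of 0.102 and 0.187 with pulldown control libraries 1 and 2 left out in turn 0.161 with pulldown miR-27a library 3 left out, 0.0562 with library totals and 0.0826 with no filter. The difference from the whole-cell change was -0.85 ± 0.13 (SE, adjusted p = 0.00249), and it passed in all 20 alternatives, with adjusted p from 7.72e-05 to 0.0162. Set against whole cells, Gng4 in the pulldown was at -0.10 ± 0.09 under control mimic, with overlap, and at -0.95 ± 0.09 under miR-27a, with none. No annotated gene shared exon bases with Gng4, and its 3′ UTR held no seed match.

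By adjusted p Rgs4 was next, at -0.45 ± 0.12 (SE, adjusted p = 0.0767). It passed without pulldown miR-27a replicate 2 (0.00689), as did Gng7 at 0.76 ± 0.21 (0.0441), whose value was 0.57 ± 0.24 (SE, adjusted p = 0.305) with that library. For Rgs4, the replicates in pulldown RNA were above those of whole cells under control mimic and overlapped them under miR-27a. Gna12, with -0.22 ± 0.09, Rgs3, with -0.41 ± 0.16, and Gna14, with -0.41 ± 0.16, did not pass (adjusted p = 0.286, 0.261 and 0.263). Gng12 was at -0.02 ± 0.08 and Gnb1 at -0.07 ± 0.09.

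Pulldown was then set against whole-cell RNA under each mimic. Under control mimic, 5 of 41 members were higher and 17 lower in the pulldown (53.7%, where 62.0% of genes passed), and under miR-27a 3 were higher and 22 lower (61.0%, where 60.2% passed). Libraries were apart in all 22 of the first calls and in 24 of the 25 of the second. Called genes with libraries apart were 60.0% and 57.1% of all genes. The member shares were thus near those of all genes. By direction, 41.5% and 53.7% of members were lower, against 30.3% and 30.9% of genes, and 12.2% and 7.32% were higher, against 31.7% and 29.3%. These comparisons share no library with each other, but each shares its libraries with the mimic comparisons. Both were taken from the same fit of all 12 libraries, so their p-values rest on a shared estimate of the spread. With library totals as the scaling, which moved the median of all genes by 0.101 under miR-27a and 0.088 under control mimic, members split 7 higher and 18 lower under miR-27a, and 6 higher and 15 lower under control mimic. Under both mimics, 17 members were lower (25.3% of genes were) and 3 were higher (24.6% of genes), namely Gna12, Gnaz and Gnal.

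Gna12 had the largest rise in the pulldown. It stood at 129, 141 and 137 CPM in whole cells and 248, 262 and 259 CPM in the pulldown under control mimic, 0.91 ± 0.07 (SE, adjusted p = 1.72e-09), and the change under miR-27a was 0.69 ± 0.07 (SE, adjusted p = 5.41e-08). In the annotation 13.3% of its exon bases lie opposite exons of Amz1, on the other strand. The same holds for 24.2% of those of Gng3 (Bscl2), 20.4% of Gng2 (Gm48283) and 10.1% of Rgs16 (Gm28513). For Gnas it holds for 13.1% (Gm20721) and 8.8% (Nespas). Whether counting used the strand is not stated. G12 class subunits were 21.8% ± 0.29 of the summed alpha level in whole-cell control, 29.9% ± 0.77 in pulldown control and 25.3% ± 0.90 in pulldown miR-27a libraries. Gna13, of the same class, was at -0.10 ± 0.06 and did not pass under control mimic, and fell by 0.21 ± 0.06 (SE, adjusted p = 0.00305) under miR-27a, a call that was lost with library totals (0.11). Gnaz was higher in the pulldown, at 0.65 ± 0.10 and 0.38 ± 0.10 under control mimic and miR-27a. Gnal, at 9.24, 8.52 and 8.81 CPM in whole-cell and 10.9, 12.4 and 11.4 CPM in pulldown control libraries, was higher, at 0.35 ± 0.11 and 0.61 ± 0.11.

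Other alpha subunits were lower or did not pass. Gnai3 had 387, 369 and 372 CPM in whole-cell and 279.8, 288 and 273 CPM in pulldown control libraries, -0.42 ± 0.06 (SE, adjusted p = 1.46e-05), and was at -0.31 ± 0.06 under miR-27a. Gnas was lower, at -0.39 ± 0.06 and -0.29 ± 0.06, from 616, 625 and 640.2 CPM in whole cells to 492, 456 and 484 CPM in the pulldown under control mimic. Groups of neither gene overlapped. Gnao1 was lower, at -0.42 ± 0.10 and -0.47 ± 0.10. Gna14 was called lower under miR-27a only (-0.55 ± 0.12 SE, adjusted p = 0.000409), and the difference between mimics did not pass, as given above. Gnai1, Gnai2, Gna11 and Gnaq passed under neither mimic, but each did in an alternative. Under miR-27a, Gnaq was lower without pulldown miR-27a replicate 2 (-0.23 ± 0.07 SE, adjusted p = 0.00458, against -0.15 ± 0.08 and 0.113 with it), and Gnai1 was higher with library totals (0.00492) and without pulldown miR-27a replicate 1 (0.0373). Under control mimic, Gna11 was higher with library totals (0.0178) and Gnai2 lower without pulldown control replicate 1 (0.0497).

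Beta and gamma subunits were mostly lower in the pulldown. Gnb2 fell from 181, 212 and 214 to 148, 126 and 134 CPM under control mimic, -0.57 ± 0.09 (SE, adjusted p = 1.85e-05), and was at -0.82 ± 0.09 under miR-27a. Gnb5, at 40.6, 46.3 and 45.8 against 29.7, 30.6 and 28.3 CPM, was at -0.56 ± 0.08 and -0.49 ± 0.08, and Gnb1, at 112, 103 and 109 CPM in pulldown control and 99.3, 86.1 and 96.96 CPM in pulldown miR-27a libraries, at -0.35 ± 0.06 and -0.42 ± 0.06. Gnb4 alone among measured beta subunits passed under neither mimic, at -0.11 ± 0.07 and 0.09 ± 0.07, and was higher under miR-27a with library totals (0.0338). Gng12 was lower, at -0.77 ± 0.06 and -0.78 ± 0.06, Gng3 at -0.75 ± 0.11 and -0.53 ± 0.11, Gng2 at -0.60 ± 0.06 and -0.61 ± 0.06 and Gng5 at -0.47 ± 0.07 and -0.52 ± 0.07. Pulldown libraries of Gng2 had 71.02, 70.3 and 68.5 CPM under control mimic and 71.3, 84.7 and 75.04 CPM under miR-27a, and those of Gng5 had 52.4, 49.7 and 53.4 CPM and 48.5, 42.6 and 43.5 CPM. In these 4 gamma genes whole-cell and pulldown libraries did not overlap under either mimic. Gng10, at 108, 115 and 119 against 101, 97.9 and 97.9 CPM under control mimic, was lower, at -0.20 ± 0.06 and -0.24 ± 0.06, and lost the first call with library totals (0.108). Gng11 passed under miR-27a (3.61, 3.97 and 3.38 CPM in whole cells and 2.79, 2.46 and 2.47 CPM in the pulldown, -0.38 ± 0.15 (SE, adjusted p = 0.0398)), but its adjusted p was 0.0745 and 0.0935 with pulldown miR-27a libraries 2 and 3 left out in turn 0.078, 0.123 and 0.0522 with whole-cell miR-27a libraries 1, 2 and 3 left out in turn, 0.0981 with library totals and 0.0845 with no filter. Gng7 passed under neither mimic, at -0.17 ± 0.17 and 0.40 ± 0.17 (adjusted p = 0.384 and 0.0515), but was higher under miR-27a without pulldown miR-27a replicate 2 (0.58 ± 0.16 SE, adjusted p = 0.00239) and with library totals (0.02).

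The RGS genes with the largest differences were Rgs16 and Rgs5. Rgs16 had 16.0, 17.2 and 15.8 CPM in whole cells and 5.63, 5.91 and 6.59 CPM in the pulldown under control mimic, -1.30 ± 0.10 (SE, adjusted p = 4.19e-09), and -1.56 ± 0.10 under miR-27a. Its pulldown mean was 0.370 and 0.284 times its whole-cell mean. Rgs5 had 4.59, 5.03 and 5.47 against 1.56, 2.86 and 2.76 CPM under control mimic, -0.85 ± 0.17 (SE, adjusted p = 0.000228), and was at -0.97 ± 0.17 under miR-27a. Groups of both genes were apart. The R7 genes Rgs9 and Rgs6 and the RZ gene Rgs17 were also lower under both mimics: Rgs9, at 28.8, 24.9 and 24.8 against 15.5, 19.3 and 18.5 CPM under control mimic, at -0.54 ± 0.09 and -0.69 ± 0.09, Rgs6, at 2.42, 3.25 and 3.00 against 1.44, 1.24 and 2.29 CPM, at -0.57 ± 0.18 and -0.78 ± 0.18, and Rgs17, at 15.5, 11.4 and 13.01 against 9.17, 9.34 and 7.86 CPM, at -0.54 ± 0.14 and -0.39 ± 0.14. Rgs17 overlapped between the groups under miR-27a, where its adjusted p was 0.0559 and 0.13 with pulldown miR-27a libraries 1 and 3 left out in turn 0.0541 and 0.0514 with whole-cell miR-27a libraries 1 and 3 left out in turn, 0.0725 with library totals and 0.058 with no filter. Rgs6 under control mimic had an adjusted p of 0.05 with pulldown control library 2 left out.

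Rgs4 and Rgs12 were higher in the pulldown under control mimic. Rgs4 had 36.8, 35.3 and 32.3 CPM in whole cells and 47.6, 49.1 and 44.03 CPM in the pulldown, 0.42 ± 0.08 (SE, adjusted p = 0.000281), against -0.03 ± 0.08 under miR-27a. Rgs12, a large protein with further signalling domains, had 88.5, 97.1 and 97.9 against 113, 113 and 116 CPM, 0.27 ± 0.07 (SE, adjusted p = 0.00242), against -0.01 ± 0.07 under miR-27a. Neither passed under miR-27a, and for neither did the difference between mimics pass (adjusted p = 0.0767 and 0.208). Rgs3 was lower under miR-27a only (-0.44 ± 0.11 SE, adjusted p = 0.00259). Rgs2 was lower, at -0.23 ± 0.09 and -0.25 ± 0.09, with adjusted p of 0.164 and 0.0618 with pulldown control libraries 1 and 3 left out in turn and 0.059 and 0.122 with whole-cell control libraries 1 and 2 left out in turn under control mimic and of 0.134 with pulldown miR-27a library 3 left out and 0.0568 and 0.0674 with whole-cell miR-27a libraries 1 and 2 left out in turn under miR-27a. With library totals both calls of Rgs2 were lost (0.185 and 0.154), and with no filter that under control mimic (0.0599). Rgs7, Rgs8, Rgs10, Rgs19, Rgs20, Rgs22 and both RGS binding proteins passed under neither mimic. In alternatives, Rgs19 was higher under miR-27a without pulldown miR-27a replicate 2 (0.25 ± 0.11 SE, adjusted p = 0.0419, against 0.0712 with it) and with library totals (0.00948), Rgs7 lower under control mimic with median-of-ratios scaling (0.0456) and without pulldown control replicate 3 (0.0364), and Rgs9bp higher under miR-27a without pulldown miR-27a replicate 1 (0.0245). In these comparisons the summed OPC markers were higher in pulldown libraries and the summed oligodendrocyte markers lower. The latter were 5900 to 6620 CPM in pulldown and 12000 to 12600 CPM in whole-cell control libraries. Astrocyte markers summed to 5890 to 6060 CPM and 8910 to 8960 CPM in the same order. Under control mimic, 7 of 10 astrocyte markers were lower in the pulldown and 2 higher. Of 7 neuronal markers 4 were lower and 1 higher, and of 5 endothelial markers 3 were higher and none lower. Mural markers gave 3 higher and 2 lower of 6, and microglial markers 1 higher and 1 lower of 8. The part of these cells in the values of the members was not tested.

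**Figure D3:**
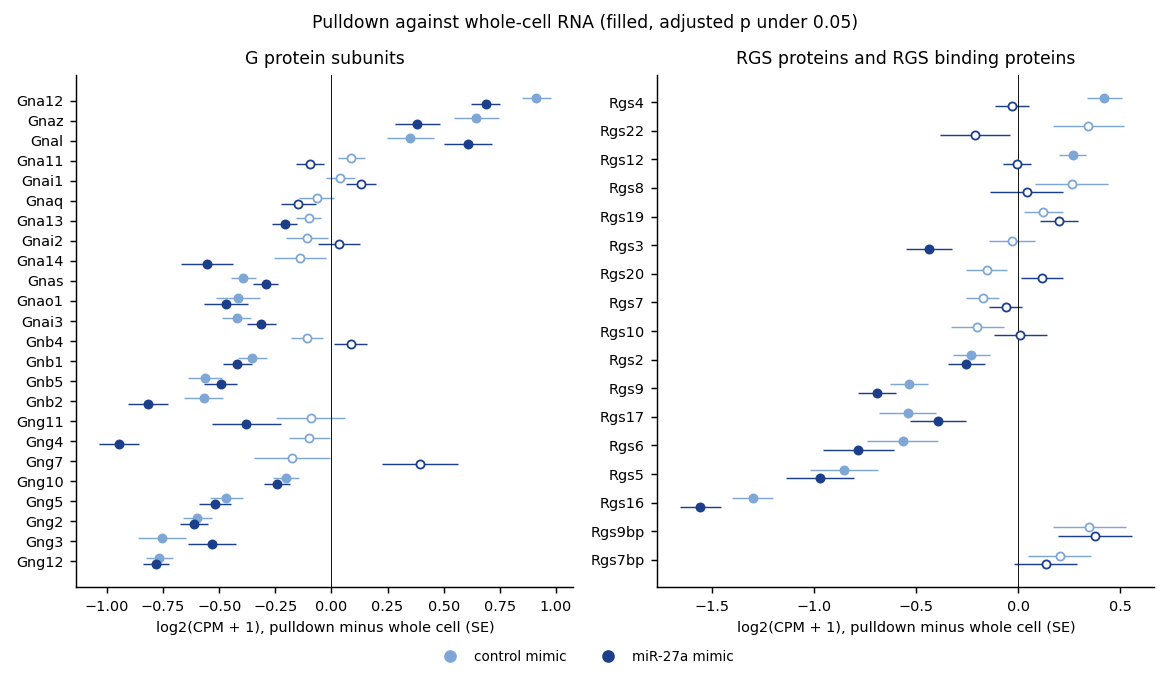
Log2 difference between pulldown and whole-cell RNA for 41 members under each mimic, on the log2(CPM + 1) scale, with SE as bars and filled points for an adjusted p below 0.05. Gna12 lies farthest right and Rgs16 farthest left under both mimics, and the points of Gng4 and Rgs4 differ most between mimics among the called genes.

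The make-up of each class by level is drawn for all 4 groups. By CPM per kb, Gi/o subunits were the largest alpha class throughout, at 51.7% ± 0.75, 50.9% ± 0.71, 46.0% ± 0.96 and 49.1% ± 1.9 in whole-cell control, whole-cell miR-27a, pulldown control and pulldown miR-27a libraries. R4 genes were 44.8% ± 1.1, 42.4% ± 0.22, 43.1% ± 1.4 and 36.4% ± 3.0 of the summed RGS level in the same order. These shares depend on the annotated exon length of each gene, such as 11186 bases for Gnas, 11172 for Gnal, 3262 for Gnai3 and 12692 for Gnb4. They are given as a description and were not tested.

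**Figure D4:**
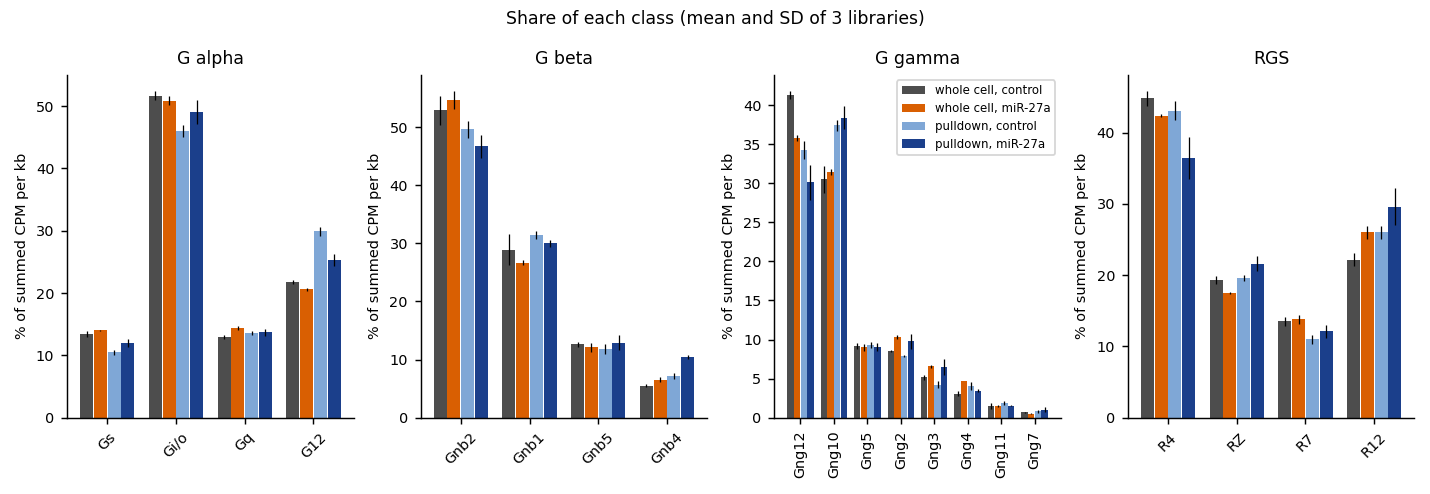
Share of each coupling class, subunit or RGS family in the summed CPM per kb of its class, as mean and SD of 3 libraries per group, with axes from 0. The G12 class is larger in pulldown than in whole-cell libraries, Gng12 is smaller under miR-27a in both kinds of RNA, and the R4 share is lowest in pulldown miR-27a libraries.

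Other genes of the pathway were read from lists. Receptors come first. Of 23 receptors of oligodendroglia tested in whole-cell RNA, 7 rose and 4 fell under miR-27a, and of 25 in pulldown RNA 5 rose and 5 fell. These are 47.8% and 40.0%, where 24.9% and 13.1% of all genes passed, and these shares of all genes are also the background of the lists that follow. With the replicate block the pulldown counts were also 5 and 5. S1pr3, a sphingosine 1-phosphate receptor that couples to Gi, Gq and G12 classes, fell from 250.0 ± 2.68 to 129 ± 1.56 CPM (SD, n = 3) in whole cells, a log2 change of -0.95 ± 0.04 (SE, adjusted p = 4.89e-15), and from 248 ± 8.96 to 97.1 ± 20.2 CPM in the pulldown (-1.37 ± 0.12, adjusted p = 3.42e-06). S1pr1, which couples to Gi, rose by 0.48 ± 0.04 in whole cells, and the thrombin receptor F2r by 0.37 ± 0.04. In the pulldown, the lysophosphatidic acid receptor Lpar1 fell by 1.08 ± 0.11 on the log2 scale and the Gs-coupled adenosine receptor Adora2b by 1.53 ± 0.16. Each of these calls passed in every alternative run.

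Gs and Gi act through cAMP. Of 8 adenylyl cyclases, 2 rose in whole-cell RNA and none fell, and 3 rose and 1 fell in the pulldown, where the replicate block gave equal counts. Adcy8 had 16.0 ± 0.86 CPM in control and 20.7 ± 1.7 CPM in miR-27a whole-cell libraries (0.35 ± 0.08, adjusted p = 0.00239). Adcy3 rose by 0.25 ± 0.07 in whole cells, with an adjusted p of 0.0144. It was 0.0891 with whole-cell miR-27a library 3 left out and 0.0544 with all 12 libraries fitted together. Whole-cell Adcy2 and Adcy9 did not pass, but were called higher without whole-cell control replicate 1 (0.0314) and replicate 2 (0.0197), respectively. In the pulldown Adcy3 rose by 0.41 ± 0.10, Adcy2 by 0.46 ± 0.11 and Adcy9 by 0.39 ± 0.11, and each call depended on single libraries. The adjusted p of Adcy3 was 0.075 and 0.0532 with pulldown control libraries 1 and 3 left out in turn and 0.0979 with pulldown miR-27a library 3 left out. That of Adcy2 was 0.0581 and 0.0556 with pulldown control libraries 2 and 3 left out in turn and 0.0722 with pulldown miR-27a library 3 left out. That of Adcy9 was 0.0536, 0.0666 and 0.0832 with pulldown control libraries 1, 2 and 3 left out in turn and 0.0772 with pulldown miR-27a library 3 left out. Among 6 subunits of protein kinase A, the cAMP-dependent kinase, Prkar1a rose in both kinds of RNA (0.34 ± 0.04 and 0.37 ± 0.08). In whole cells 2 more passed, Prkar2b at 0.17 ± 0.05 and Prkacb at -0.20 ± 0.05. The adjusted p of Prkar2b was 0.114 with whole-cell miR-27a library 2 left out. With all 12 libraries fitted together, Prkar2b (0.139) and Prkacb (0.104) lost their whole-cell calls. Of 9 phosphodiesterases that break down cAMP, Pde7b passed in both kinds of RNA and no other in either (11.1% of 9), from 16.6 ± 1.00 to 9.66 ± 1.64 CPM in whole cells (-0.73 ± 0.10, adjusted p = 1.17e-05) and at -0.66 ± 0.12 in the pulldown. Pde4b stood at -0.12 ± 0.04 in whole cells (adjusted p = 0.0517). It was called lower there with a filter of 5 CPM (0.0469), with median-of-ratios scaling (0.0395), and without whole-cell control replicate 1 (0.035) or miR-27a replicate 1 (0.04). With the replicate block in the pulldown, 3 PKA subunits and 3 phosphodiesterases passed, the further ones being Prkacb (-0.27 ± 0.07, adjusted p = 0.0113), Prkar1b (-0.39 ± 0.10, 0.0127), Pde7a (-0.24 ± 0.07, 0.029) and Pde3b (0.23 ± 0.07, 0.0296). Without pulldown miR-27a replicate 2, Prkacb (0.000938), Pde7a (0.00124) and Pde4b (0.0211) were lower there.

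None of 3 phospholipase C beta genes and none of 4 exchange factors for RhoA passed in either kind of RNA, with Plcb1 at -0.07 ± 0.05 and 0.30 ± 0.12 and Arhgef12 at 0.01 ± 0.04 and -0.05 ± 0.08. Plcb1 passed in the pulldown with the replicate block (adjusted p = 0.0232), with all 12 libraries (0.048) and without pulldown miR-27a replicate 1 (0.0038). Of 7 receptor kinases and arrestins, which switch off active receptors, 1 passed in each kind of RNA (14.3%). Adrbk2 (GRK3) fell from 23.6 ± 0.24 to 16.0 ± 0.53 CPM in whole cells (-0.53 ± 0.07, adjusted p = 6.83e-06) and was at -0.50 ± 0.11 in the pulldown, where it was lost without pulldown control replicate 2 (0.0509). Of 6 nucleotide exchange and GoLoco proteins, which bind GDP-bound alpha subunits, 1 passed in each kind of RNA (16.7%). Gpsm2 rose by 0.23 ± 0.04 in whole cells and by 0.34 ± 0.08 in the pulldown, the second with an adjusted p of 0.092 and 0.0702 with pulldown control libraries 1 and 3 left out in turn and 0.0851 with pulldown miR-27a library 3 left out. Ccdc88a passed in the pulldown with the replicate block (0.37 ± 0.09, adjusted p = 0.013). In whole cells Rap1gap was called higher without whole-cell miR-27a replicate 2 (0.0342).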

How the data were processed

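RNA-seq of 12 libraries was used, with groups and replicate numbers from the sample titles. The deposited values are log2 CPM, which the authors made with edgeR from featureCounts (Subread) counts of HISAT2 alignments to GRCm38, per the series' design text. Versions and the strand setting are not given, and mm8 is also named in the submitters' processing notes, without a role. Each library's lowest value was that of 0 reads with a prior of 0.25 reads. CPM and reads were recovered from it, whole within 0.01 reads, at 15548418 to 24972188 reads per library.

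Genes that reached 1 CPM in 3 or more libraries of a fit were tested with limma 3.58.1 (R 4.3.3, trend, 2-sided) on log2(CPM + 1), with Benjamini-Hochberg adjustment over all genes and a threshold of 0.05. The mimics were compared on 6 libraries each, and pulldown against whole-cell RNA, with the difference between mimics, on all 12. The script was tested on simulated data. Count tests planned for read counts were not run, because the deposited unit is log2 CPM, and voom on the recovered reads was an alternative. Others were pseudocounts of 0.25 and 4, no filter, a filter of 5 CPM, library totals, median of ratios, a replicate block, the other set of libraries, and each library left out.

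Same-numbered pulldown control and miR-27a libraries deviated together (correlations 0.135, 0.275 and 0.107 over 13875 genes). Between same-numbered whole-cell and pulldown miR-27a libraries the correlations were 0.0148, 0.161 and 0.132. The labels name no shared source, so any pairing by number is taken from the data.

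Members and lists were chosen with earlier results of these data known. Library values are given for members called in any comparison without overlap and for the leading member of each class, and for other pathway genes up to 3 with the smallest p per list. Seed matches were sought in the longest annotated 3′ UTR (GENCODE M21), for 18014 genes matched by symbol. Tables used Python 3.11.15, pandas 2.3.3 and numpy 2.4.6, and plots matplotlib 3.10.9.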

Additional observations from a re-analysis of the deposited data

Results flagged for a closer look

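Gng4 stood out because its change under miR-27a differed between the kinds of RNA by a test of the difference itself. The log2 change in pulldown RNA minus that in whole-cell RNA was -0.85 ± 0.13 (SE, limma, adjusted p = 0.00249, 12 libraries). All 3 whole-cell libraries under miR-27a lay above all 3 under control mimic, and all 3 pulldown libraries lay below.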

How the results depend on the processing

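Over the 5 comparisons, 79 member results passed the threshold. Of the 1183 refits of them under the alternatives, 1078 kept the call and 105 lost it, 70 of these with a library left out, none turned its direction, and 53 results kept the call throughout. With all 12 libraries fitted together, whole-cell RNA gave 10 members and 1415 of all genes, and pulldown RNA 3051 of all genes. Without the filter on low values, pulldown RNA gave 6 members and 1246 of all genes, and the difference between the mimic changes 73 of all genes. The cause of these shifts was not tested. With a library left out, whole-cell counts ran from 12 to 18 members and from 2379 to 3294 genes, and pulldown counts from 4 to 12 members and from 969 to 2691 genes. For the difference between the mimic changes they ran from 1 to 3 members and from 43 (without whole-cell miR-27a replicate 3) to 473 genes (without pulldown miR-27a replicate 2). Pulldown against whole-cell RNA gave 21 to 22 members and 7777 to 8140 genes for the control mimic. For the miR-27a mimic it gave 22 to 27 members and 7429 to 8441 genes.

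With the replicate number as a block, pulldown RNA gave 13 members and 2743 of all genes. The difference between the mimic changes gave 170 of all genes and 2 members, Gng4 and Rgs4 (-0.45 ± 0.11, adjusted p = 0.0444). In whole-cell RNA Gna13 was lost under the block (0.0522). There, and between whole-cell and pulldown control libraries, correlations of same-numbered deviations ran from -0.0972 to 0.0121. In none of these was the same-numbered library the closest. Between whole-cell and pulldown miR-27a libraries the correlations were 0.0148, 0.161 and 0.132, and the same-numbered library was the closest each time. The block changed no member's call in pulldown against whole-cell RNA. With library totals as the scaling, 60.2% of called genes were higher in pulldown than in whole-cell RNA under miR-27a against 48.7% otherwise, and members split 7 higher and 18 lower against 3 and 22. With median-of-ratios scaling, 42.4% of the genes called for the difference between the mimic changes were higher, against 31.5%. Depth limits low members, since 13 of 53 stayed under 1 CPM in every group.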
